A study of Mus musculus with 6 samples.

Results

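Imprinted genes are expressed from only 1 of the 2 parental copies in at least some tissues of the mouse. A list of 52 such genes was taken, and the members are those that are named in the deposited expression table: 41 of the 52 are among its 13069 genes, and 36 of the 41 passed a filter on low values and were tested among 12201 genes. The other 11 listed symbols (Asb4, Calcr, Grb10, Ddc, Mirg, Rtl1, Snrpn, Magel2, Tspan32, Zdbf2 and Zac1) were not analysed here, and Zac1 is an older symbol of Plagl1, which was. RNA came from mouse glioblastoma (GBM) neurospheres, floating cultures grown from dissociated brain tumours, with 3 libraries labelled ATRX knockout (ATRX KO, line code C54B) and 3 labelled ATRX wild type (ATRX WT, line code C39E). ATRX remodels chromatin and, with DAXX, deposits a histone H3 variant at repeats and silent regions, and the comparison asks how the profiles differ with its loss. All tumours had been started in the ventricles of newborn mice, of strain C57BL/6 or FVB, by Sleeping Beauty plasmids that carry NRAS and a short hairpin against p53, so both groups share these alterations. The growth protocol also describes a plasmid with a short hairpin against ATRX, given or left out, while the labels say knockout, so which of these was used is not known. Each genotype is 1 line, the strain of each line is not stated, and line and genotype therefore cannot be told apart. Both lines were kept in a serum-free medium for neural stem cells, supplemented with B-27 and N-2 and with the growth factors FGF and EGF.

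Imprinting is set by DNA methylation at control regions that differs between egg and sperm and is kept through development by factors such as the zinc finger protein ZFP57 and its partner TRIM28. One parental copy of a control region stays methylated, and through it nearby genes are silenced or freed, often several in a cluster and in opposite parental directions. Many paternally expressed members promote growth, many maternally expressed members restrain it, and several are strongly expressed in the developing brain. In these data the reads of both alleles are summed, so the parental allele of each gene is textbook background and loss of imprinting cannot be read from a level.

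Values are RPKM (reads divided by gene length in kilobases and by library size), which allow levels to be compared between genes, with the mean ± SD over 3 libraries. The words rose and fell are kept for genes whose limma adjusted p, corrected over all 12201 tested genes by the Benjamini-Hochberg method, was under 0.05. Each log2 fold change is given as ATRX KO minus ATRX WT, in part with its standard error (SE). The libraries held 22177228 to 32477269 reads in ATRX KO and 34966108 to 38039847 reads in ATRX WT. The library sizes that the authors used were 0.932 to 0.935 of these reads in ATRX KO and 1.07 times these reads in ATRX WT. Atrx itself was at 14.1, 16.6 and 17.1 RPKM in ATRX KO and at 22.3, 22.7 and 21.5 RPKM in ATRX WT, a log2 fold change of -0.48 (SE 0.068, limma adjusted p = 0.00013). The transcript was therefore still present in the libraries labelled ATRX KO, and where in the gene the alteration lies is not given in the sources used here. The lines differed widely: log2 RPKM correlated across tested genes at 0.997 to 0.998 within a genotype and at 0.592 to 0.599 between genotypes, and 89.5% of all tested genes passed the threshold. The labelled tissue was checked against markers. Of 14 listed neural and glioma stem markers 12 are in the table. Their summed level was 113 to 123 RPKM in ATRX KO and 3250 to 3320 RPKM in ATRX WT. Olig1 and Dcx had 0 reads in ATRX KO, and 11 of the 12 were lower there. Sox9, the other one, averaged 62.6 ± 5.26 RPKM in ATRX KO and 31 ± 0.966 RPKM in ATRX WT. It rose by 1.01 (limma adjusted p = 2.1e-07). Fabp7 alone made up 2710 to 2780 RPKM of the ATRX WT sum, and without it the sums were 113 to 123 RPKM in ATRX KO and 539 to 541 RPKM in ATRX WT. That of mesenchymal and fibroblast markers, 14 of 15 listed, was 1830 to 2000 RPKM in ATRX KO and 47.3 to 50.5 RPKM in ATRX WT, and all 12 that were tested rose. Of the 2 under the filter, Thy1 was lower in ATRX KO, at 0.621 ± 0.25 RPKM against 1.09 ± 0.167 RPKM in ATRX WT, and Col1a2 was higher. That of neuron markers, 7 of 8 listed, was 7.76 to 8.44 RPKM in ATRX KO and 179 to 186 RPKM in ATRX WT, and all 6 that were tested fell. Of all tested genes 43.6% rose and 45.9% fell. In these lists only Sox2, Nes, Msi1, Sox9, Pdgfra, Fn1, Prrx1, Tubb3 and Map2 reached the filter on low values in both genotypes. The other tested markers passed it through 1 genotype only, so the filter set their direction in part. Of 9 immune and endothelial markers 2 are in the table, Cdh5 and Kdr. Cdh5 was at 5.36 to 6.22 RPKM in ATRX KO and 0.0134 to 0.0371 RPKM in ATRX WT, and Kdr was at 0.206 to 0.274 RPKM in ATRX KO and 0.244 to 0.339 RPKM in ATRX WT. The differences in the sums run with genotype in every library, and their part in the changes of the imprinted genes was not tested. In such bulk samples fewer cells of a type and less RNA per cell cannot be told apart.

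RefSeq promoter windows (GRCm38.p6, 250 bases before to 50 bases after a transcript start) were found for 33 of the 41 members, 46 windows in all. They are shown for some of the genes treated below. First come 3 of the paternally expressed genes that were far lower in ATRX KO, then 2 retrogenes that stayed expressed inside a host gene. Then follow Peg3, whose window is largely shared with that of Usp29, and Phlda2, which was high in ATRX KO. Capitals mark the hexamer TGCCGC or its reverse complement GCGGCA, the letters that ZFP57 is known to bind when their CpG is methylated. Sequences run 5′ to 3′ on the strand of the gene.
Mest (chr6:30737800-30738099, plus strand): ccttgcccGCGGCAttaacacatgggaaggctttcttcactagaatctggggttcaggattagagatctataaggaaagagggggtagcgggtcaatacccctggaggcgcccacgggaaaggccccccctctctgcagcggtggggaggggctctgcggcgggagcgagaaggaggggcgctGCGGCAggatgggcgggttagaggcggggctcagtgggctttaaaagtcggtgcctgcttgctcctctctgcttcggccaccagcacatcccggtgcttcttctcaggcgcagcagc
Nnat (chr2:157559828-157560127, plus strand): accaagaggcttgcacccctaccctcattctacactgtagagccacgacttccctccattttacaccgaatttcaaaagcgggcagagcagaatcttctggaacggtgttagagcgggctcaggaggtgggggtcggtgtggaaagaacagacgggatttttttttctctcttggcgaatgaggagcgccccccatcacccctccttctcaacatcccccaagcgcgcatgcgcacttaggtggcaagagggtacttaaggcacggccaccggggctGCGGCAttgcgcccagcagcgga
Nap1l5 (chr6:58907077-58907376, minus strand): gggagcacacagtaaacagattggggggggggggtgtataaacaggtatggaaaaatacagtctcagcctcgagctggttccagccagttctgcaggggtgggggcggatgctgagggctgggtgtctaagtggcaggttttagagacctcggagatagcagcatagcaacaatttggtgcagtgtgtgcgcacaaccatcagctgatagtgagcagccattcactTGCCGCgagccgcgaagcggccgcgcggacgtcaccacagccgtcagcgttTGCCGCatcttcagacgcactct
Mcts2 (chr2:152686898-152687197, plus strand): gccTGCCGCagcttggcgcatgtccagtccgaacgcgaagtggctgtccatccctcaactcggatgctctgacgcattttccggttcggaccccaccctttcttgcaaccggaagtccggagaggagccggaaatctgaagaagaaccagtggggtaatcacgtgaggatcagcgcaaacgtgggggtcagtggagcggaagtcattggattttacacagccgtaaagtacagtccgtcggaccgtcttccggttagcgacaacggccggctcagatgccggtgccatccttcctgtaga
Zrsr1 (chr11:22971755-22972054, plus strand): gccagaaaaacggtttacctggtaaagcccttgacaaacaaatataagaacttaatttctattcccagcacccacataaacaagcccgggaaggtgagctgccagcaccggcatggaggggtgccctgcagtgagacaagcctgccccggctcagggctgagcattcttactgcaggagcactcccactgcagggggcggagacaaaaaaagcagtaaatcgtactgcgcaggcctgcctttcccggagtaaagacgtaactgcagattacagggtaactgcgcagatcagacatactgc
Peg3 (chr7:6730370-6730669, minus strand): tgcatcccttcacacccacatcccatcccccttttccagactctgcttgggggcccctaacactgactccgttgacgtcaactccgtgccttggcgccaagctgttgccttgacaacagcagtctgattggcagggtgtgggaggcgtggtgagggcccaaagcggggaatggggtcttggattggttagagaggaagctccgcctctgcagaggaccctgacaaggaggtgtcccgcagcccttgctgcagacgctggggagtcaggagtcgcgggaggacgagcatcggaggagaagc
Phlda2 (chr7:143502475-143502774, minus strand): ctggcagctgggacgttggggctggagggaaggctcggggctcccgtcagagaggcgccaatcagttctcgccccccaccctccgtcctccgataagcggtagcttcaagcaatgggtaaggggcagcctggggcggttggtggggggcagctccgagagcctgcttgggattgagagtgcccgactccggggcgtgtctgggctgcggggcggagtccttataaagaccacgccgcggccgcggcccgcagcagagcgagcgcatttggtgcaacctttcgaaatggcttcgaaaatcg

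The Mest and Nap1l5 windows hold 2 copies of the hexamer each, those of Nnat and Mcts2 hold 1 each, and those of Zrsr1, Peg3 and Phlda2 hold 0. The Peg3 and Usp29 windows share 263 of their 300 bases on opposite strands, since these genes start 147 bases apart. The windows shown hold 10 (Zrsr1), 13 (Peg3), 17 (Mest, Nnat and Nap1l5), 25 (Mcts2) and 26 (Phlda2) CpG dinucleotides. Searched on both strands, the hexamer was present in 11 of the 46 member windows (23.9%), in 11.6% of all 32851 RefSeq windows and in 19.6% of the 12763 windows of genes in the table. The 11 windows belong to 10 genes, because 2 of them are the Mest promoter shifted by a few bases. Counted by gene, the shares were 30.3% of 33 members, 13.1% of all RefSeq genes and 23.1% of the genes in the table. Among windows with at least 10 CpG the shares were 33.3% of 33 member windows, 22.5% of all RefSeq windows and 23.3% of windows of genes in the table. The other members with the hexamer were Ampd3, Meg3, Copg2, Zim1, Plagl1 and Commd1. The windows of Ndn (log2 fold change -7.39) and Gatm (-9.30), also far lower in ATRX KO, hold 0 copies. A further Mest window (chr6:30733256-30733555) holds 0 copies too. A relation between the hexamer and the fold changes was not tested. A match describes the letters and is not evidence of a bound or methylated site, and the windows need not cover the control regions of the clusters. No window was matched for H19, Peg10, Sgce, Impact, Trappc9, Peg13, Qpct and Nap1l4.

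Of the 36 tested imprinted genes, 26 fell in ATRX KO (72.2%, beside 45.9% of all tested genes), 9 rose (25%, beside 43.6%) and 1, Commd1, gave no call. Past a fold change of log2 1, tested with limma's treat, were 21 (58.3%, beside 32.6% of all tested genes), of which 15 were lower in ATRX KO, beside 17.2% of all tested genes, and 6 were higher, beside 15.4%. The 3 libraries of the genotypes did not overlap for 35 of the 36, beside 90.5% of all tested genes. The median fold change was -0.76, beside -0.02 over all tested genes. That median depends on the scale: it was -0.495 after quantile normalization and -0.48 on log2(RPKM + 1). The filter shapes these counts, because 10 members passed it only through ATRX WT and 4 (H19, Slc38a4, Phlda2 and Ano1) only through ATRX KO. Of the 22 members that reached the filter in both genotypes, 16 fell and 5 rose. Past log2 1 were 9 of the 22, and their median fold change was -0.35. The shares of all tested genes given above include genes that passed through 1 genotype only. The counts of these 22 therefore have no like share beside them. The plot of values by library shows a wide spread, with levels in ATRX KO between near 0 and 174 RPKM.

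**Figure D1:**
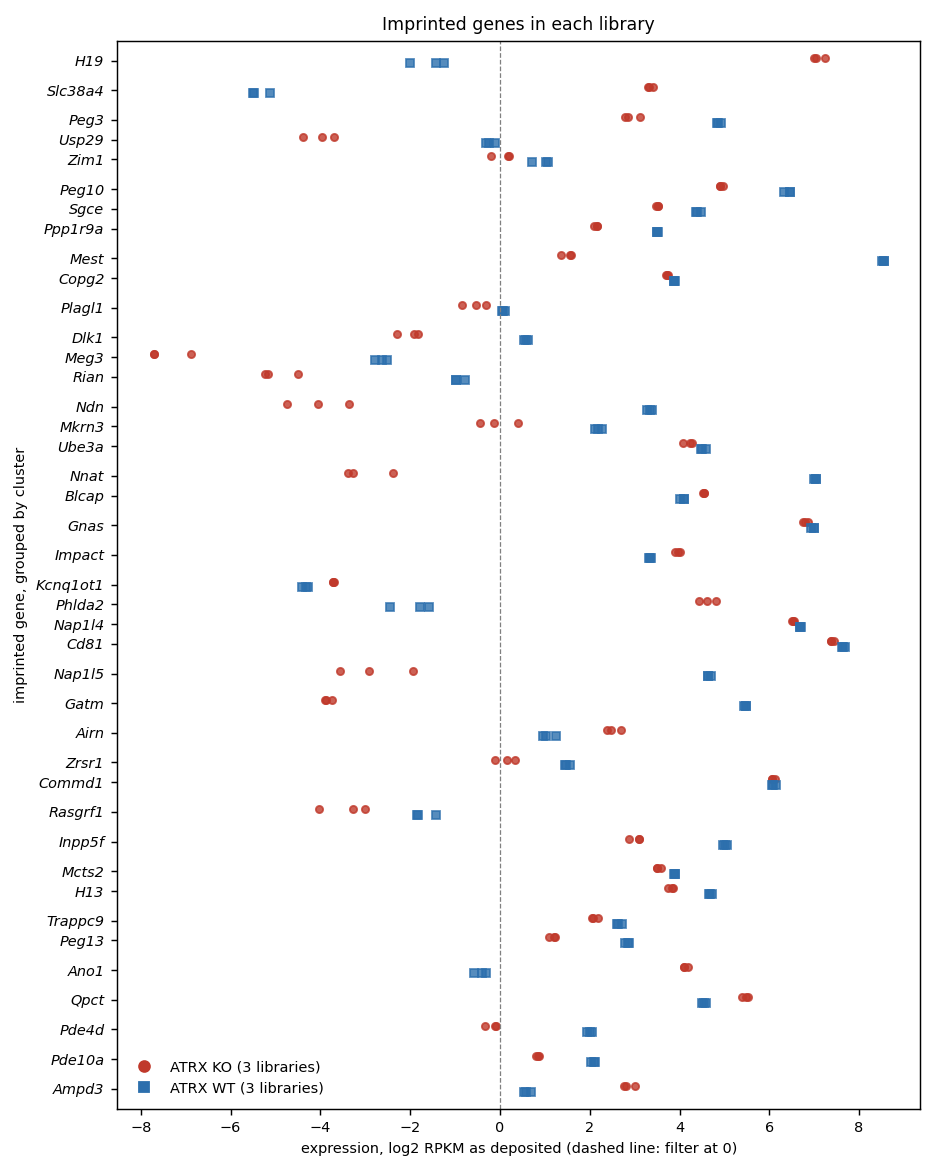
Expression of the 41 imprinted genes in each library, as deposited log2 RPKM on the horizontal axis, with genes grouped by cluster down the page, red circles for the 3 ATRX KO libraries and blue squares for the 3 ATRX WT libraries. The dashed line is the filter at 0. H19, Slc38a4, Phlda2 and Ano1 lie far higher in ATRX KO, Mest, Nnat, Nap1l5, Ndn and Gatm lie far lower, and Commd1 overlaps between the genotypes.

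The members were next grouped by the allele that is usually active. Of 16 tested of the 24 listed paternally expressed genes, 13 fell (81.2%, beside 45.9% of all tested genes). The other 3 (Slc38a4, Airn and Impact) rose (18.8%, beside 43.6%). The median fold change of the 16 was -1.58, and 12 were past log2 1 (75%, beside 32.6% of all tested genes), 10 of them lower. Of 10 tested of the 16 listed maternally expressed genes, 6 fell (60%) and 3 (H19, Phlda2 and Blcap) rose (30%), Commd1 being the exception. Their median was -0.25, and 3 were past log2 1 (30%). Gnas and Inpp5f, whose transcripts come from either allele depending on the promoter, both fell. Of 8 tested of 10 genes that are imprinted in few tissues, mainly placenta, 5 fell (62.5%) and 3 (Ano1, Qpct and Ampd3) rose (37.5%), with a median of -0.21. These counts and medians follow the filter in part, since 7 of the 13 paternal falls are of genes that passed it only through ATRX WT, which favours a lower value in ATRX KO. Among genes that reached the filter in both genotypes, 6 of 8 paternally expressed genes fell and 2 rose, with a median of -1.20, and 5 of 7 maternally expressed genes fell and 1 rose, with a median of -0.34. Here too no share over all genes that reached the filter in both genotypes stands beside the counts. The difference between these allele groups was not tested. The largest rises included both a paternally expressed gene, Slc38a4, and a maternally expressed one, H19.

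**Figure D2:**
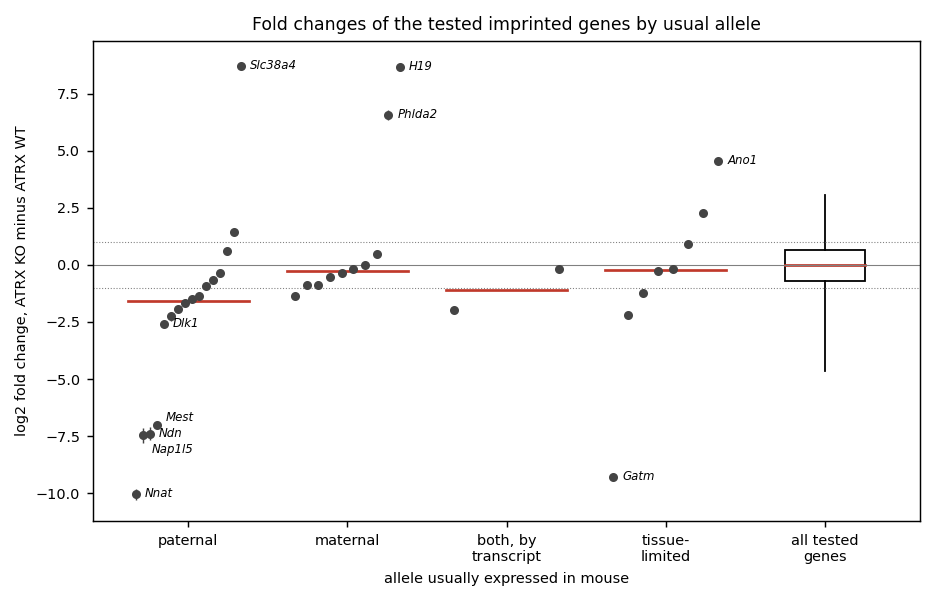
Log2 fold change (ATRX KO minus ATRX WT, vertical axis) of the 36 tested imprinted genes, grouped by usual allele along the horizontal axis. Points are genes with their SE, red lines are medians, dotted lines mark a fold change of log2 1 in either direction, and the box at the right gives the quartiles of all 12201 tested genes with whiskers to the 5th and 95th percentiles. The paternal group has its median at -1.58, the maternal group at -0.25, the tissue-limited group at -0.21, and all tested genes at -0.02. For genes that passed the filter through ATRX WT alone the filter favours values below 0, and for those that passed it through ATRX KO alone values above 0.

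On distal chromosome 7, H19 and Phlda2, maternally expressed genes that restrain growth, were both far higher in ATRX KO. H19, a noncoding RNA of the embryo that is turned off after birth in most tissues (chr7:142575529-142578143, minus strand, GENCODE M21 on GRCm38), was at 129, 151 and 132 RPKM in ATRX KO and at 0.221, 0.344 and 0.397 RPKM in ATRX WT. H19 was among the strongest members in every ATRX KO library, and the ATRX WT libraries held 87 reads in all against 24172 in ATRX KO. The log2 fold change was 8.65 (SE 0.175, limma adjusted p = 2.9e-10). Phlda2, a PH-domain protein that limits growth of the placenta (chr7:143501545-143503150, minus strand), was at 28.2, 21.7 and 24.5 RPKM in ATRX KO and at 0.253, 0.1 and 0.205 RPKM in ATRX WT. ATRX WT held 16 reads in 3 libraries, so the ratio of summed reads, 136 for ATRX KO over ATRX WT, has a 95% counting interval of 83.2 to 238, which covers counting error only, and the fitted log2 fold change was 6.56 (SE 0.207, limma adjusted p = 4.2e-09). The groups are far apart for both genes.

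The other 3 members in the Kcnq1ot1 cluster, Kcnq1ot1, Cd81 and Nap1l4, differed by less than log2 1. Of the listed imprinted genes of this region that are no members, 4 (Kcnq1, Cdkn1c, Tnfrsf23 and Osbpl5) rose by more than that. Tssc4 and Dhcr7 fell by 0.71 and 0.81. Kcnq1 and Cdkn1c passed the filter only through ATRX KO. Kcnq1ot1, the paternally expressed noncoding RNA that silences this cluster in cis, was under the filter at 0.0753, 0.0769 and 0.0757 RPKM in ATRX KO and 0.0463, 0.049 and 0.0505 RPKM in ATRX WT. Its ATRX KO libraries were all above those of ATRX WT, and without the filter its fold change was 0.64 (limma adjusted p = 0.0075). Cd81, a tetraspanin, averaged 169 ± 4.05 RPKM in ATRX KO and 201 ± 4.85 RPKM in ATRX WT and fell by 0.25 on the log2 scale (limma adjusted p = 4.4e-05). Nap1l4, a nucleosome assembly protein, averaged 92.5 ± 1.1 RPKM in ATRX KO and 103 ± 0.699 RPKM in ATRX WT and fell by 0.16 (limma adjusted p = 2e-04). Both are among the most abundant members in either line.

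Slc38a4, a paternally expressed amino acid transporter of placenta and liver, had a fitted rise close to that of H19. It lies at chr15:96994820-97055956 (minus strand) and was at 9.88, 10.5 and 10 RPKM in ATRX KO and at 0.00678, 0.00626 and 0.0128 RPKM in ATRX WT. The ATRX WT libraries held 1, 1 and 2 reads, against 819 to 1175 in ATRX KO. Its fold change is therefore loosely set and depends on the prior count of 2 that the deposited values hold beside the reads. The order of Slc38a4 and H19 turns with the scale (3.45 for Slc38a4 and 6.68 for H19 on log2(RPKM + 1)). With limma's voom, a model of the reads themselves, the fold changes were 9.78 for Slc38a4 and 8.74 for H19. The ratio of ATRX KO to ATRX WT was 1170 (95% counting interval 458 to 4320), and the fitted log2 fold change was 8.72 (SE 0.137, limma adjusted p = 7.6e-11). The gene was thus expressed in every ATRX KO library and close to the detection limit in every ATRX WT library.

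In the Peg3 cluster on proximal chromosome 7 all 3 members were lower in ATRX KO. Peg3, a paternally expressed zinc finger protein of brain and placenta (chr7:6703892-6730431, minus strand), was at 6.93, 8.72 and 7.2 RPKM in ATRX KO and at 28.6, 30.3 and 29.2 RPKM in ATRX WT, a log2 fold change of -1.95 (SE 0.08, limma adjusted p = 2.3e-08). Usp29, a deubiquitinase read the other way from the shared promoter region shown above (chr7:6730578-6967219, plus strand), was under the filter, with 16, 8 and 9 reads in ATRX KO and 230, 261 and 279 reads in ATRX WT. Its fold change without the filter was -3.79 (SE 0.194, limma adjusted p = 1.2e-07). Zim1, a maternally expressed zinc finger gene, was at 0.85, 1.13 and 1.12 RPKM in ATRX KO and at 2.08, 1.61 and 2.01 RPKM in ATRX WT. It fell by 0.87 (limma adjusted p = 0.00037), and after quantile normalization the value was -0.20 (limma adjusted p = 0.208), with which the call was lost. The members of both parental directions were thus on the same side here. The groups did not overlap for any of the 3, nor for 90.5% of all tested genes.

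In the cluster of Peg10 and Sgce on chromosome 6 the 3 members in the table fell, while Casd1, an imprinted gene beside Sgce that is no member, averaged 13.8 ± 0.545 RPKM in ATRX KO and 8.65 ± 0.226 RPKM in ATRX WT and rose by 0.67 (limma adjusted p = 6e-07). Peg10, a retrotransposon-derived gene that the placenta needs (chr6:4747306-4760517, plus strand), was at 29.8, 31.2 and 29.8 RPKM in ATRX KO and at 80.4, 88 and 88.3 RPKM in ATRX WT, a log2 fold change of -1.50 (SE 0.042, limma adjusted p = 1.9e-09). Sgce, epsilon-sarcoglycan, which starts 99 bases from Peg10 on the other strand, averaged 11.4 ± 0.199 RPKM in ATRX KO and 21.3 ± 0.853 RPKM in ATRX WT and fell by 0.91 (SE 0.039, limma adjusted p = 3.4e-08). Ppp1r9a, the maternally expressed gene of the actin-binding protein neurabin, was at 4.46, 4.29 and 4.48 RPKM in ATRX KO and at 11.3, 11.5 and 11.3 RPKM in ATRX WT, a log2 fold change of -1.36 (limma adjusted p = 4.3e-09). In each of these 3 members the ATRX KO libraries were all below those of ATRX WT. Of all tested genes 90.5% did not overlap in either direction.

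Mest, a paternally expressed enzyme of the embryonic mesoderm and a marker of growing tissue (chr6:30723547-30748465, plus strand), was the most abundant member in ATRX WT and nearly lost in ATRX KO. It was at 2.56, 2.94 and 2.97 RPKM in ATRX KO and at 375, 376 and 364 RPKM in ATRX WT. ATRX KO stood at 0.759% of the ATRX WT level, with 600 reads against 121586. The log2 fold change was -7.03 (SE 0.055, limma adjusted p = 3.6e-12). Copg2, a coatomer subunit whose 3′ end overlaps that of Mest on the other strand, averaged 13.2 ± 0.22 RPKM in ATRX KO and 14.8 ± 0.0775 RPKM in ATRX WT and fell by 0.17 (limma adjusted p = 0.0012). Whether the authors' counting used strand is not stated, and without it reads from the overlap of such genes cannot be told apart.

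In the Dlk1-Meg3 cluster on chromosome 12 the 3 members were low in ATRX WT and lower still in ATRX KO. Dlk1, a paternally expressed relative of the Notch ligands that holds back differentiation (chr12:109452823-109463336, plus strand), was at 0.192, 0.27 and 0.251 RPKM in ATRX KO and at 1.48, 1.43 and 1.52 RPKM in ATRX WT, a log2 fold change of -2.58 (SE 0.141, limma adjusted p = 1.6e-07). The maternally expressed noncoding RNAs were under the filter. Meg3 had 0, 0 and 1 reads in ATRX KO and 76, 89 and 72 reads in ATRX WT, a ratio of ATRX WT to ATRX KO of 155 with a 95% counting interval of 27.6 to 6160. Rian, which hosts small nucleolar RNAs, had 1, 1 and 2 reads in ATRX KO and 76, 71 and 70 reads in ATRX WT, a ratio of 35.6 (13.7 to 132). Genes of both parental directions were again on the same side.

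In the Prader-Willi and Angelman region on central chromosome 7, the paternally expressed members Ndn and Mkrn3 fell by more than log2 2, and the maternally expressed member Ube3a fell by less than log2 1. Ndn, the gene of necdin, a MAGE-family protein of postmitotic neurons (chr7:62346569-62350262, plus strand), had 3, 1 and 0 reads in ATRX KO and 630, 649 and 680 reads in ATRX WT, that is 0.0277 ± 0.0303 RPKM in ATRX KO and 10.1 ± 0.363 RPKM in ATRX WT. The ratio of ATRX WT to ATRX KO was 321 (95% counting interval 125 to 1180), and the fitted log2 fold change was -7.39 (SE 0.295, limma adjusted p = 1.9e-08). Mkrn3, a RING-finger protein whose loss is known to cause early puberty in humans, was at 0.882, 0.705 and 1.31 RPKM in ATRX KO and at 4.5, 4.78 and 4.3 RPKM in ATRX WT, a log2 fold change of -2.25 (limma adjusted p = 3.9e-06). Ube3a, the ubiquitin ligase that is maternal in neurons and active from both alleles elsewhere, averaged 18.3 ± 1.28 RPKM in ATRX KO and 23.1 ± 0.92 RPKM in ATRX WT and fell by 0.34 (limma adjusted p = 0.00034). Ube3a was well expressed in both lines, while Ndn was read in ATRX WT and close to the detection limit in ATRX KO. The neuron marker sums given above moved the same way as Ndn, and their part in this result was not tested.

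Nnat, Nap1l5, Mcts2, Zrsr1 and Peg13 are paternally expressed genes that lie inside another gene, and each is set out with its host. Nnat and Nap1l5 were nearly silent in ATRX KO, while Mcts2, Zrsr1 and Peg13 fell less. Nnat, neuronatin, a small membrane protein of the developing brain (chr2:157560078-157562522, plus strand), had 2, 2 and 4 reads in ATRX KO and 6429, 7125 and 7022 reads in ATRX WT. Its level was 0.0837 ± 0.0527 RPKM in ATRX KO and 131 ± 2.22 RPKM in ATRX WT. The ratio of ATRX WT to ATRX KO was 1690 (95% counting interval 855 to 3900), and the fitted log2 fold change of -10.05 (SE 0.226, limma adjusted p = 5.3e-10) was the lowest among the tested members. Its host Blcap, a small membrane protein, was at 23.4, 23.1 and 23.2 RPKM in ATRX KO and at 16.1, 17.1 and 17.1 RPKM in ATRX WT, and rose by 0.47 (SE 0.035, limma adjusted p = 1.5e-06). Host and inner gene thus moved in opposite directions.

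Nap1l5, a nucleosome assembly protein of the brain inside Herc3 (chr6:58905233-58907076, minus strand), had 3, 5 and 9 reads in ATRX KO and 1838, 1918 and 1871 reads in ATRX WT. The ratio of ATRX WT to ATRX KO was 217 (95% counting interval 135 to 373), and the fitted log2 fold change was -7.46 (SE 0.337, limma adjusted p = 4.5e-08). Mcts2, a retrogene inside the signal peptide peptidase gene H13 on the same strand, was at 12, 11.3 and 11.2 RPKM in ATRX KO and at 14.6, 14.8 and 14.8 RPKM in ATRX WT, a log2 fold change of -0.36 (limma adjusted p = 2.1e-05). H13 averaged 14 ± 0.584 RPKM in ATRX KO and 25.8 ± 0.428 RPKM in ATRX WT, a log2 fold change of -0.88 (limma adjusted p = 3.7e-08). Zrsr1, a retrogene of a splicing factor inside Commd1, was at 0.905, 1.11 and 1.26 RPKM in ATRX KO and at 2.95, 2.77 and 2.71 RPKM in ATRX WT, a log2 fold change of -1.37 (limma adjusted p = 4.7e-06). Commd1, a protein of endosomal sorting, was at 67, 70 and 67.1 RPKM in ATRX KO and at 71.1, 67.4 and 66.4 RPKM in ATRX WT, overlapped between the genotypes and gave -0.01 (SE 0.034, limma adjusted p = 0.89), with a sign that turned when single libraries were left out. Mcts2 and Peg13 lie on the same strand as their hosts, so how reads were assigned between them is not known. Mcts2 and Zrsr1 resemble the genes they were copied from, so their reads may be split between copies and their levels are uncertain. Peg13, a paternally expressed noncoding RNA inside Trappc9, was at 2.27, 2.34 and 2.13 RPKM in ATRX KO and at 7.23, 6.89 and 7.31 RPKM in ATRX WT, a log2 fold change of -1.66 (limma adjusted p = 1e-08). Trappc9, a subunit of a membrane trafficking complex, averaged 4.28 ± 0.219 RPKM in ATRX KO and 6.27 ± 0.252 RPKM in ATRX WT and fell by 0.55 (limma adjusted p = 2e-05).

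Airn, the paternal noncoding RNA that silences Igf2r in cis (chr17:12741311-12860136, plus strand), was at 5.17, 5.53 and 6.48 RPKM in ATRX KO and at 2.36, 1.92 and 2.02 RPKM in ATRX WT. It rose by 1.43 (SE 0.106, limma adjusted p = 1.4e-06), with all ATRX KO libraries above those of ATRX WT. Igf2r, its maternally expressed target and the receptor that clears insulin-like growth factor 2, averaged 94.9 ± 2.03 RPKM in ATRX KO and 19.8 ± 0.35 RPKM in ATRX WT and rose by 2.26 (SE 0.029, limma adjusted p = 2.5e-11). The silencing RNA and its target were thus both higher in ATRX KO. Airn starts inside Igf2r on the other strand, so reads of the overlap cannot be told apart without strand.

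Gnas, Impact and Inpp5f are each the only member of their cluster in the table. Gnas, the alpha subunit of the stimulatory G protein, averaged 111 ± 4.29 RPKM in ATRX KO and 126 ± 2.89 RPKM in ATRX WT and fell by 0.18 (limma adjusted p = 0.001), where the table sums its variant transcripts. Impact, a paternally expressed regulator of the Gcn2 kinase, averaged 15.5 ± 0.542 RPKM in ATRX KO and 10.1 ± 0.159 RPKM in ATRX WT and rose by 0.62 (limma adjusted p = 4.9e-07). Inpp5f, a phosphoinositide phosphatase with a paternal brain variant, was at 7.34, 8.5 and 8.58 RPKM in ATRX KO and at 32.3, 33.3 and 31.1 RPKM in ATRX WT, a log2 fold change of -1.99 (SE 0.062, limma adjusted p = 4.1e-09). Of these 3 genes only Inpp5f was past log2 1.

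Plagl1, a paternally expressed zinc finger factor that regulates other imprinted genes, was at 0.678, 0.545 and 0.788 RPKM in ATRX KO and at 1.07, 1.02 and 1.03 RPKM in ATRX WT. It fell by 0.64 (limma adjusted p = 0.002), but after quantile normalization it was higher in ATRX KO at 0.87 (limma adjusted p = 0.00011), so its direction depends on the scaling. Rasgrf1, a guanine nucleotide exchange factor of neurons, was under the filter with 13, 6 and 11 reads in ATRX KO and 64, 52 and 50 reads in ATRX WT, and its fold change without the filter was -1.74 (limma adjusted p = 0.00028). Both genes are near or under the level at which genes were tested.

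Among the genes imprinted in few tissues, Gatm and Ano1 changed most and in opposite directions. Gatm, an enzyme of creatine synthesis (chr2:122594467-122611303, minus strand), had 3, 3 and 2 reads in ATRX KO and 3923, 4239 and 4037 reads in ATRX WT, that is 0.0439 ± 0.00416 RPKM in ATRX KO and 44 ± 0.649 RPKM in ATRX WT. The ratio of ATRX WT to ATRX KO was 999 (95% counting interval 507 to 2320), and the fitted log2 fold change was -9.30 (SE 0.077, limma adjusted p = 4e-12). Ano1, a calcium-activated chloride channel (chr7:144588549-144751974, minus strand), was at 17.1, 17 and 18.2 RPKM in ATRX KO and at 0.787, 0.743 and 0.657 RPKM in ATRX WT, a log2 fold change of 4.56 (SE 0.078, limma adjusted p = 1.1e-10). Ampd3, an AMP deaminase, was at 8.04, 6.8 and 6.98 RPKM in ATRX KO and at 1.44, 1.6 and 1.48 RPKM in ATRX WT, a log2 fold change of 2.26 (limma adjusted p = 1e-08). Qpct, a glutaminyl cyclase, averaged 44.1 ± 1.97 RPKM in ATRX KO and 23.2 ± 0.692 RPKM in ATRX WT and rose by 0.93 (limma adjusted p = 3.3e-08). The phosphodiesterases of cyclic nucleotides fell. Pde4d was at 0.933, 0.916 and 0.78 RPKM in ATRX KO and at 3.84, 4.12 and 3.99 RPKM in ATRX WT, a log2 fold change of -2.18 (limma adjusted p = 2.5e-08). Pde10a was at 1.73, 1.8 and 1.83 RPKM in ATRX KO and at 4.25, 4.34 and 4.05 RPKM in ATRX WT, a log2 fold change of -1.23 (limma adjusted p = 1.2e-07). The groups did not overlap for any of these 6 genes, nor for 90.5% of all tested genes.

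Imprinted genes often share a control region with the genes beside them. Each cluster was therefore set against the other tested genes within 1 Mb, without the imprinted genes of either list. The lists need not be complete, so some neighbours may be imprinted too. In 21 clusters with at least 5 such neighbours and a tested member, 9 of 29 members lay outside the range of all their neighbours. Below it were Mest (-7.03, 10 neighbours from -1.98 to 2.59), Dlk1 (-2.58, 9 neighbours from -0.19 to 1.30), Nnat (-10.05, 21 neighbours from -5.53 to 3.37), Gatm (-9.30, 11 neighbours from -4.97 to 3.03) and Peg13 (-1.66, 5 neighbours from -1.04 to 0.32). Above it were H19 (8.65, 12 neighbours from -7.84 to 5.64), Slc38a4 (8.72, 12 neighbours from -1.64 to 2.20), Phlda2 (6.56, 16 neighbours from -3.68 to 5.64) and Ampd3 (2.26, 14 neighbours from -6.28 to 1.04). The median fold change of the neighbours of Mest was -0.06 and that of the neighbours of Slc38a4 was 0.18, and no neighbour of either reached the fold change of the member. In the Peg3 cluster the neighbours were also lower, with a median of -1.05 over 9 genes, 7 lower and 2 higher. In the Prader-Willi and Angelman region only 2 neighbours were tested, with a median of -4.21, and 1 of them, Snhg14, is the host transcript that runs antisense to Ube3a and averaged 0.352 ± 0.0963 RPKM in ATRX KO and 6.28 ± 0.169 RPKM in ATRX WT. Among the 9 members outside the range, H19, Slc38a4 and Phlda2 passed the filter only through ATRX KO, and Dlk1, Nnat and Gatm only through ATRX WT. Their direction was thus set in part by the filter, while Mest, Peg13 and Ampd3 reached it in both genotypes. Ano1 (4.56) lay within its range through 1 neighbour, Tnfrsf26 (5.26), the next highest being Tnfrsf22 (1.54). The ranges depend on the number of neighbours and are a description.

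**Figure D3:**
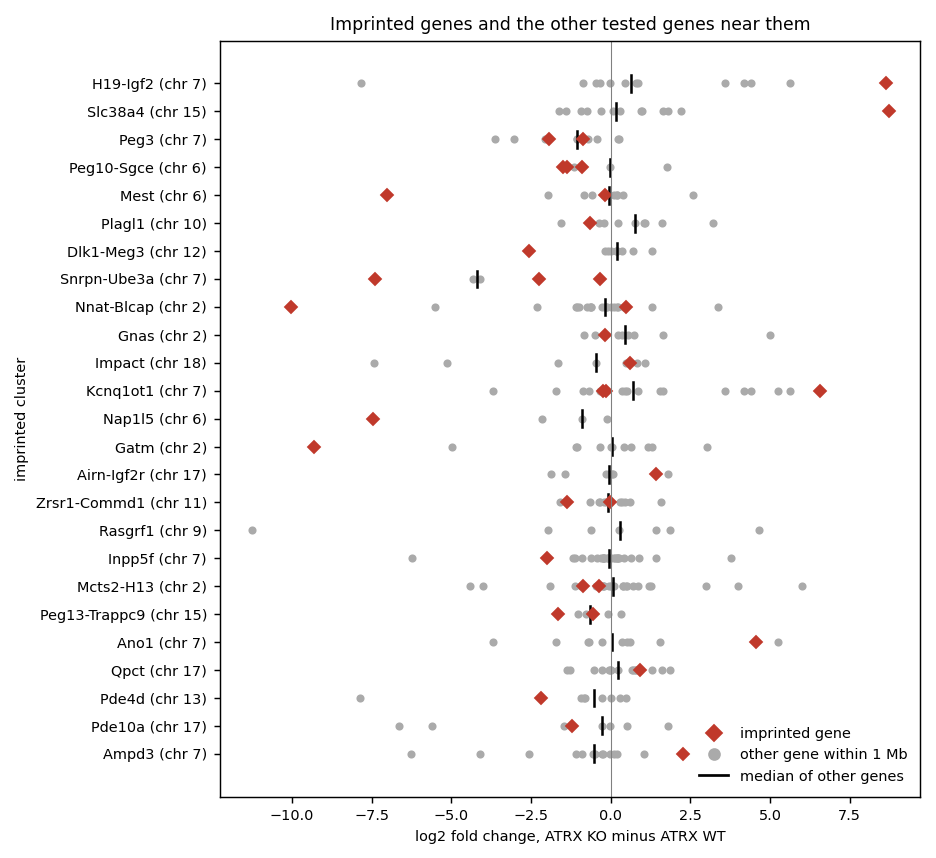
Log2 fold change (ATRX KO minus ATRX WT, horizontal axis) of imprinted genes (red diamonds) and of the other tested genes within 1 Mb (grey circles), with 1 imprinted cluster on each line and a black bar at the median of the other genes. The diamonds of Mest, Nnat, Gatm, Slc38a4 and H19 lie beyond all grey circles of their lines, while most other diamonds lie among them.

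Overlapping and divergent pairs were compared by their log2 ratio within each library, taken as the difference of the deposited log2 values. These values hold a prior count of 2 beside the reads. For well-read genes the ratio depends little on how libraries are scaled. At few reads, as for Nnat, Nap1l5 and Usp29 in ATRX KO, it depends in part on the prior count and the scaling. The ratio of Nnat to Blcap averaged -7.56 ± 0.55 in ATRX KO and 2.96 ± 0.03 in ATRX WT (SD, n = 3 each), so Nnat was the stronger gene of the pair in ATRX WT and the weaker one in ATRX KO. The same turn was seen for Mest over Copg2, at -2.22 ± 0.10 in ATRX KO and 4.65 ± 0.02 in ATRX WT, and for Nap1l5 over Herc3, at -4.92 ± 0.90 in ATRX KO and 1.37 ± 0.05 in ATRX WT. Peg13 over Trappc9 was at -0.92 ± 0.09 in ATRX KO and 0.19 ± 0.04 in ATRX WT. The ratios of Zrsr1 to Commd1, Airn to Igf2r, Usp29 to Peg3 and Peg10 to Sgce were also lower in ATRX KO, with differences of -1.36, -0.83, -1.84 and -0.59. Mcts2 over H13 alone was higher, at -0.28 ± 0.06 in ATRX KO and -0.80 ± 0.03 in ATRX WT. The 3 libraries of the genotypes did not overlap in any of the 9 pairs, beside 90.5% of all tested genes taken singly. Each pair gave p = 0.1 in a two-sided exact permutation test, also after adjustment over the 9 pairs, which is the smallest p that 3 libraries against 3 allow, so no pair could pass 0.05 by this test.

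**Figure D4:**
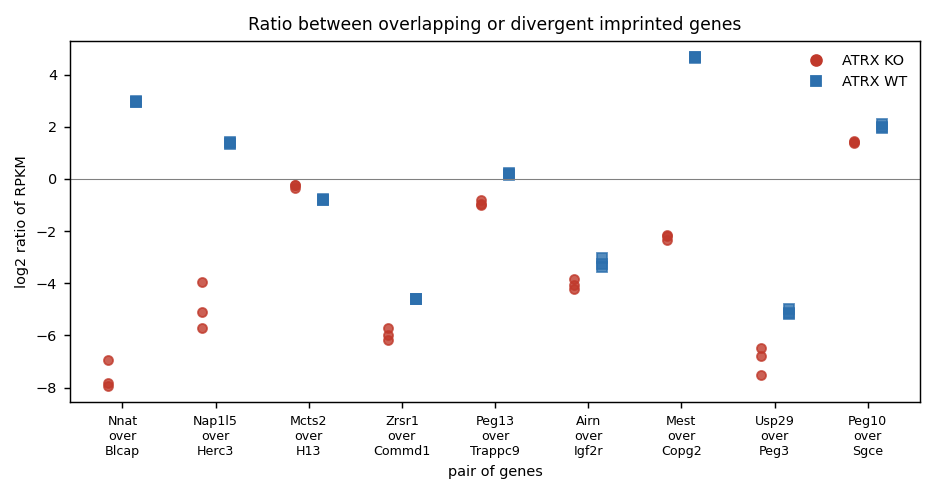
Log2 ratio within each library, from the deposited log2 RPKM (vertical axis), for 9 pairs of overlapping or divergent genes (horizontal axis). Each ratio sets the paternally expressed gene or inner gene over its partner. Red circles are the 3 ATRX KO libraries and blue squares the 3 ATRX WT libraries. The ratios of Nnat to Blcap, Nap1l5 to Herc3 and Mest to Copg2 are above 0 in ATRX WT and far below 0 in ATRX KO, and the ratio of Mcts2 to H13 is the only one that is higher in ATRX KO.

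Other imprinted genes, which are no members, were counted from a separate list of 42. Of these, 22 are in the table and 20 were tested. Among the 20, 12 rose (60%, beside 43.6% of all tested genes) and 8 fell (40%, beside 45.9%). Their median fold change was 0.61. The filter shapes these values too, since Igf2, Cdkn1c, Kcnq1 and Dcn passed it only through ATRX KO and Adam23 only through ATRX WT. On distal chromosome 7, next to H19 and Phlda2, the growth factor Igf2 averaged 2.63 ± 0.164 RPKM in ATRX KO and 0.07 ± 0.0172 RPKM in ATRX WT and rose by 4.98 (limma adjusted p = 5e-09). Igf2 is paternally expressed and H19 maternally, and both were higher in ATRX KO. Cdkn1c, a maternally expressed cell cycle inhibitor, averaged 7.01 ± 0.515 RPKM in ATRX KO and 0.455 ± 0.00176 RPKM in ATRX WT and rose by 3.85 (limma adjusted p = 3.3e-10). Kcnq1, the potassium channel gene that Kcnq1ot1 is read against, had 330 reads in ATRX KO and 3 reads in ATRX WT and was also called higher (limma adjusted p = 2.5e-08). In the same region Tnfrsf23, a decoy receptor, rose by 2.87 and Osbpl5, an oxysterol-binding protein, by 1.66, while Tssc4 and Dhcr7 fell by 0.71 and 0.81. The largest rise of the list was that of Dcn, decorin, a matrix proteoglycan of fibroblasts, at 20.7 ± 2.35 RPKM in ATRX KO and 0.0323 ± 0.0129 RPKM in ATRX WT (8.40, limma adjusted p = 1.8e-10). Dcn is also 1 of the mesenchymal markers summed above. Peg12, in the Prader-Willi region, averaged 4.92 ± 0.0842 RPKM in ATRX KO and 25.8 ± 0.538 RPKM in ATRX WT and fell by 2.38 (limma adjusted p = 7.2e-11), on the same side as Ndn and Mkrn3. Atp10a, a lipid flippase gene of that region, averaged 9.52 ± 0.267 RPKM in ATRX KO and 6.23 ± 0.277 RPKM in ATRX WT and rose by 0.61 (limma adjusted p = 2.7e-06), on the other side. The other large falls were those of Adam23 (-5.43), a cell surface protein of neurons, and Herc3 (-1.17), the host of Nap1l5.

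Factors that keep or read imprints were listed apart, 36 genes with 32 tested. Of the 32, 19 fell (59.4%, beside 45.9% of all tested genes), 7 rose (21.9%, beside 43.6%) and 6 did not pass the test. Their median was -0.22, and 2 were past log2 1 (6.25%, beside 32.6% of all tested genes). Zfp57, which binds the hexamer shown in the promoter windows, was at 21.4, 23.6 and 23.8 RPKM in ATRX KO and at 1.41, 1.41 and 1.3 RPKM in ATRX WT, a log2 fold change of 4.04 (SE 0.062, limma adjusted p = 6.3e-11). The next largest rises were those of the histone demethylase Kdm1a (0.67) and the Polycomb subunit Eed (0.40). Its partner Trim28 averaged 105 ± 2.74 RPKM in ATRX KO and 130 ± 3.99 RPKM in ATRX WT and fell by 0.31 (limma adjusted p = 1.7e-05). Dnmt1, the maintenance DNA methyltransferase, averaged 64.9 ± 3.08 RPKM in ATRX KO and 71.1 ± 1.59 RPKM in ATRX WT and fell by 0.13 (limma adjusted p = 0.0091). Dnmt3a, a de novo methyltransferase, fell by 0.80, and the oxidase Tet1 and the histone demethylase Kdm1b, which acts on imprints in the egg, fell by 1.13 and 1.21, followed by Arid4a, which fell by 0.85. DNA methylation was not measured, so the state of the control regions in these lines is not known from these data.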

How the data were processed

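Poly-A RNA of 6 libraries was measured with a stranded mRNA kit. The deposited values are log2 RPKM made by the authors. The submitters' processing notes name, with no role or order, STAR (version 2.5.3a), HTSeq (version 0.11.2), edgeR (version 3.20.9), Trim Galore and FastQC, and the builds mm9 and mm10. The filter behind the table and the strand setting of the counting are not given in the sources used here.

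From the deposited log2 values whole reads were recovered for 100% of genes (tolerance 0.0001 reads, prior count 2), and they gave the RPKM, depths and read counts printed. The recovery returned 100% of 2976 genes in simulated data. limma (version 3.58.1, R version 4.3.3) was run on the deposited values as a two-sided test with a trended variance prior, on 4 residual degrees of freedom and 4.2 from the prior. Genes had to reach log2 RPKM 0 in 3 or more libraries, and 868 did not. Fold changes past log2 1 were tested with limma's treat. On simulated data for this comparison the test called 48 of 50 genes made to differ by log2 0.5, and 50 of 50 at each of log2 1, 2 and 4, with 13 false calls among 12001 unchanged genes. The genes made to differ had over 50 reads on average, and every gene was given the same dispersion. In the data 89.5% of tested genes passed the threshold and some members had few reads, so these rates need not hold there. All members in the table are named, with the value in every library for those past log2 1 and for at least 1 of each larger cluster, and of the 2 other lists up to 3 rises and 3 falls. Igf2r, Cdkn1c, Tnfrsf22, Tnfrsf23, Tnfrsf26, Osbpl5, Tssc4, Dhcr7, Casd1, Atp10a, Snhg14, Sox9, Trim28, Dnmt1 and Dnmt3a were added after their values were seen. Ratios of reads, for members whose lower group had under 20 reads in all, are scaled by the authors' library sizes. Coordinates, overlaps and distances were looked up by symbol in GENCODE M21 (GRCm38), whatever build the reads were counted on, and 0 sample columns were left unused. The members and lists were chosen with earlier results of these data known. Since each genotype is 1 line, p-values measure the spread between libraries, which may be technical. Alternatives in scaling, filter, pseudocount, model and libraries are given in the closing section.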

Additional observations from a re-analysis of the deposited data

How the results depend on the processing

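The median fold change of the tested imprinted genes was -0.76 and kept its sign under every alternative tried. It was -0.88 with no filter, -0.55 with a filter of log2 RPKM 1, -0.95 with libraries scaled to the reads in the table, -0.495 after quantile normalization, -0.48 on log2(RPKM + 1), and -0.80 to -0.70 with 1 library left out. Scaling to the reads in the table also moved the median of all tested genes to -0.22, against -0.02. The counts of 9 higher and 26 lower held with any library left out, and over all alternatives they ranged from 9 to 10 and from 23 to 30, with 17 to 25 genes past log2 1. With the replicate number as a block the counts were again 9, 26 and 21 and the median -0.76. Same-numbered libraries did not deviate together (correlations -0.045, 0.051 and -0.038), so the numbers do not pair them. Among 537 values of single genes under alternatives, 530 kept direction and call. Plagl1 reversed to 0.87 and Zim1 lost its call (-0.20) after quantile normalization, Commd1 was -0.026 to 0.024 with 1 library left out (0.006, 0.004 and 0.024 without ATRX KO replicate 1, ATRX KO replicate 3 and ATRX WT replicate 1), and it passed the threshold at -0.20 and -0.19 under reads-in-table scaling and quantile normalization. The cause of these shifts was not tested. Few reads limit Meg3, Rian, Usp29 and Rasgrf1, and the ATRX KO values of Ndn, Nnat, Nap1l5 and Gatm.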
